A study of Rattus norvegicus with 42 samples.

Results

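Whole blood gene expression was compared between rats that did and did not receive tissue plasminogen activator (tPA) after a permanent middle cerebral artery occlusion (MCAO). The comparison takes all rats with permanent-MCAO, 6 treated with tPA and 6 untreated, which are 12 of the 42 rats of the study. All were male Sprague-Dawley rats of 280 to 350 g. A suture passed into the carotid artery under isoflurane blocked the middle cerebral artery and stayed in place until blood was drawn at 24 h, so blood flow was not restored. Treated rats received recombinant human tPA into the peritoneum at 3.3 mg/kg, 3 h after the occlusion began, and no vehicle injection is described for untreated rats. Values from 4 other groups of 6 rats stand beside those of permanent-MCAO. These are reperfused-MCAO, where the suture was withdrawn after 2 h, with and without tPA, tPA without MCAO, and anesthesia without MCAO. A naive group was measured as well. No group had the surgery without occlusion.

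tPA is a protease that converts plasminogen to plasmin, which dissolves fibrin, and it is given in ischemic stroke to reopen an occluded artery. It also acts outside the clot, through cell surface receptors such as Lrp1 and annexin A2 and through the activation of matrix proteases. With the suture left in place the artery cannot reopen. Whole blood RNA comes from neutrophils, monocytes, lymphocytes, platelets and young red cells together. In such a mixture, fewer cells of a type and less RNA per cell cannot be told apart.

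Values are log2 expression after GC-RMA, a background correction and summary of array probes into 1 value per probe set, and a difference is the tPA mean minus the untreated mean on the log2 scale. Probe sets with a mean below log2 4 over the 12 arrays are called dim here. Most markers of the main blood cells were at or above that level. These were 24 of 26 measured T cell genes, 21 of 25 neutrophil genes, 26 of 28 platelet genes and 32 of 34 erythroid genes. Of basophil, mast cell and eosinophil genes 10 of 23 reached it. Of markers of other tissue, 1 of 17 heart muscle, 4 of 15 endothelial, 2 of 15 brain and 1 of 15 liver genes reached it. The array of tPA replicate 1 stood apart from the other 11, at 91.5 on the first principal component where the others lay between -38.2 and 31.8. The array of tPA replicate 4 stood apart on the second component and had the lowest hybridization control signal, 11.4. That signal, which comes from control RNA added at hybridization, was 11.98 ± 0.369 with tPA and 12.17 ± 0.200 without (mean log2 ± SD, n = 6 rats each, exact permutation p = 0.297).

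No gene passed adjustment for multiple testing between rats treated with tPA and untreated rats in permanent-MCAO. At the thresholds of the study, an unadjusted p of at most 0.01 and a fold change of at least 1.2, 100 of 31042 probe sets (0.322%) were called. Of these, 56 were higher with tPA (0.18%) and 44 lower (0.142%). After Benjamini-Hochberg adjustment in limma 0 passed, with a smallest adjusted p of 0.893, and the test that the methods name, which shares no variance between probe sets, called 62 and also passed 0. There were 717 probe sets (2.31%) with an unadjusted p under 0.05, and 1552 would have one if tPA made no difference to any probe set. In 16 probe sets (0.0515%) the 2 groups did not overlap, 8 with all tPA rats above and 8 with all below, and 11 of the 16 were called. A probe set that tPA does not change has a chance of 0.00216 of no overlap, and 16 of 31042 is a smaller share than that. The number called was 182 without tPA replicate 1, 158 without tPA replicate 6 and 62 without untreated replicate 6. Without tPA replicates 1 and 4 together 109 were called, and 28 of them were among the 100. Genes described below as called met the unadjusted thresholds, and none of them passed adjustment.

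**Figure D1:**
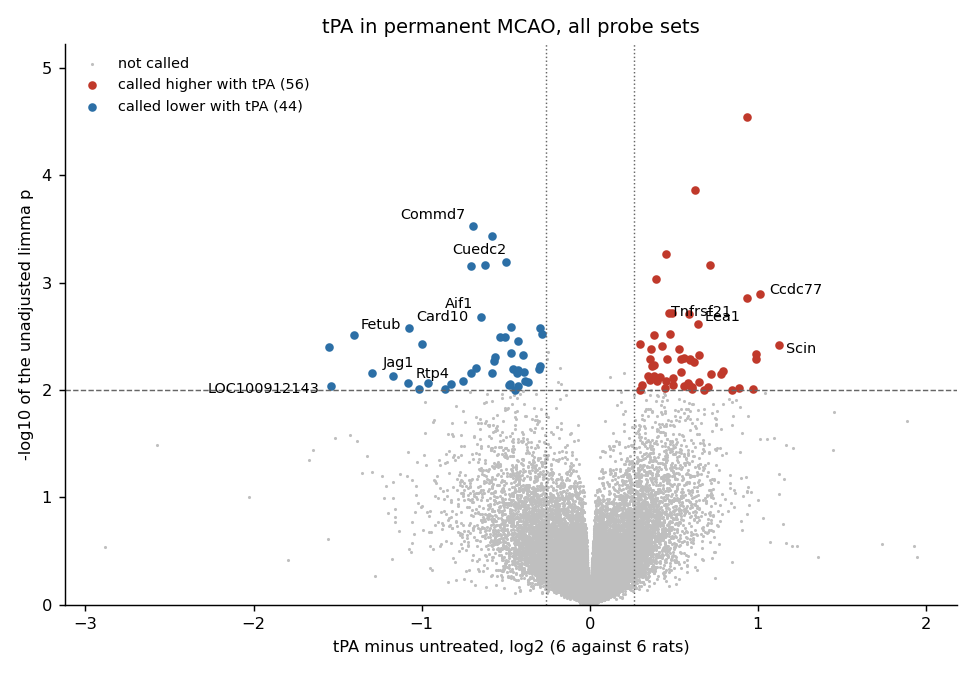
Each point is 1 of 31042 probe sets, with the tPA minus untreated difference (log2) on the horizontal axis and the -log10 of the unadjusted limma p on the vertical axis. The dashed line marks the p threshold of 0.01 and the dotted lines a fold of 1.2. The 56 probe sets called higher (red) and 44 called lower (blue) lie in the upper corners, and larger differences with higher p values lie below the dashed line on both sides.

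Among genes called higher with tPA were an actin regulator, a death receptor, a secreted regulator of lymphocytes and an enzyme of glutathione synthesis. Scin, or scinderin, which severs actin filaments and takes part in secretion, ranged from 3.52 to 4.49 (median 4.13) in untreated rats and from 4.09 to 5.87 (median 5.37) with tPA. It was 1.13 higher with tPA, a fold of 2.18 (SE 0.309, limma p = 0.00385, exact permutation p = 0.0108, n = 6 rats each). In 5 of 6 tPA rats Scin lay above the highest untreated rat. Tnfrsf21, also called death receptor 6, spanned 3.27 to 4.52 (median 4.27) without tPA and 4.74 to 5.46 (median 4.95) with it. The 2 groups did not overlap, and the difference was 0.93 (SE 0.220, p = 0.0014, exact permutation p = 0.00216, which is the smallest p that the divisions of 12 rats into 2 groups of 6 can give). A second probe set of Tnfrsf21, of about the same brightness, differed by 0.23 (SE 0.234) and was not called.

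Eea1, a tether of early endosomes, did not overlap between groups either, with 4.69 to 5.54 (median 5.36) in untreated rats and 5.56 to 6.17 (median 5.83) with tPA (difference 0.64, p = 0.00244, exact permutation p = 0.00216). Fgl2, a fibrinogen-like protein that regulates T cells and can cleave prothrombin, spanned 8.66 to 9.93 (median 9.30) without tPA and 9.42 to 10.75 (median 10.39) with it. It was 0.89 higher, with 4 of 6 tPA rats above every untreated rat (p = 0.0096, exact permutation p = 0.0173). None of the other 3 probe sets of Fgl2 was called, and they differed by 0.18 in the brightest (SE 0.105) and by 0.27 and 1.46 in the other two (SE 0.250 and 0.511). Gclc, the catalytic subunit of the enzyme that limits glutathione synthesis, ranged from 4.26 to 5.30 (median 4.81) in untreated rats and from 5.02 to 5.91 (median 5.52) with tPA, and was 0.72 higher (p = 0.0071, exact permutation p = 0.0152). The groups overlapped in Gclc, with 4 of 6 tPA rats above all untreated rats.

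Other bright genes called higher, with differences from 0.62 to 0.99, were Cdhr1, Pxmp4, Mageh1, Urb1, Man2a1, Tmem39a and Plag1. Pxmp4 is a membrane protein of peroxisomes, Man2a1 trims N-linked glycans in the Golgi, Urb1 takes part in ribosome assembly and Plag1 is a zinc finger transcription factor. Plag1 met the log2 4 level through tPA rats, at 4.17 to 4.90 against 3.48 to 4.34 in untreated rats. Brighter probe sets of Man2a1 differed by 0.37 and 0.17 and were not called. Cdhr1, a cadherin best known from photoreceptors, differed by 0.99, and tPA replicate 6 stood at 7.53 with the next rat at 6.32. Ccdc77, a dim probe set of a coiled-coil protein, was 1.02 higher and did not overlap between groups (2.16 to 3.35 against 3.54 to 4.76).

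Genes called lower with tPA included a Notch ligand, an adaptor of NF-kappa B signaling, a liver-type protease inhibitor and monocyte receptors. Fetub, or fetuin-B, an inhibitor of metalloproteases that the liver secretes, ranged from 7.41 to 8.38 (median 7.93) in untreated rats and from 5.45 to 7.39 (median 6.54) with tPA. It fell by 1.41 on the log2 scale, a fold of 2.65, with no overlap between groups (SE 0.371, p = 0.00305, exact permutation p = 0.00216). Fetub was the single liver gene of 15 measured that was not dim. Card10, a scaffold that links receptors to NF-kappa B, did not overlap between groups either, at 6.03 to 7.71 (median 6.52) without tPA and 5.17 to 5.99 (median 5.62) with it. It fell by 1.08 (SE 0.279, p = 0.00265, exact permutation p = 0.00216).

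Jag1, a ligand of Notch receptors, spanned 5.21 to 6.89 (median 6.13) in untreated rats and 4.15 to 5.82 (median 4.93) with tPA. It fell by 1.17, a fold of 2.25 (SE 0.357, p = 0.00739, exact permutation p = 0.013), and 4 of 6 tPA rats lay below all untreated rats. Rtp4, a chaperone of receptors that interferon induces, fell by 1.08 from 6.78 to 8.23 (median 7.12) to 5.44 to 7.38 (median 6.14), with 5 of 6 tPA rats below every untreated rat (p = 0.00869, exact permutation p = 0.0152). Mrps6, a protein of the mitochondrial ribosome, ranged from 8.56 to 9.33 (median 8.75) without tPA and from 7.37 to 9.04 (median 7.56) with it. Here 5 tPA rats lay below all untreated rats and 1 among them, and the difference was -0.996 (limma p = 0.0037, exact permutation p = 0.013).

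Of the 12 lowest bright called genes, LOC100912143, an uncharacterized locus in the annotation, had the lowest difference, -1.54 (SE 0.489, exact permutation p = 0.0195). It met the log2 4 level only through untreated rats. Untreated replicates 4 to 6 stood at 5.79 to 6.09, untreated replicates 1 to 3 at 3.32 to 4.16 and tPA rats at 2.86 to 4.22. Cpne8, a calcium-dependent membrane-binding copine, differed by -1.02 (-0.53 in a brighter probe set that was not called), P2ry6, a receptor for uridine diphosphate on monocytes, by -0.96, Milr1, an inhibitory receptor of mast cells and other myeloid cells, by -0.86, and Endov, a ribonuclease of inosine-containing RNA, by -0.83. Cpne8 also met the log2 4 level through untreated rats, at 3.65 to 5.01 against 2.99 to 4.53 with tPA. The remaining 2 of the 12 lowest were Fmo5, a flavin monooxygenase (-0.76), and Slc35c2, a Golgi transporter (-0.71). Aif1, a calcium-binding protein of monocytes and macrophages, was expressed at 9.39 to 10.11 (median 9.59) in untreated rats and 8.76 to 9.49 (median 8.96) with tPA. It fell by 0.65 (SE 0.161, p = 0.00208, exact permutation p = 0.00649), with 5 of 6 tPA rats below all untreated rats. Of these 12 highest and 12 lowest bright called genes, Scin, Tnfrsf21, Eea1, Fetub, Card10 and Mrps6 met the thresholds whichever 1 of the 12 rats was left out, and the other 18 lost the call without at least 1 rat.

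**Figure D2:**
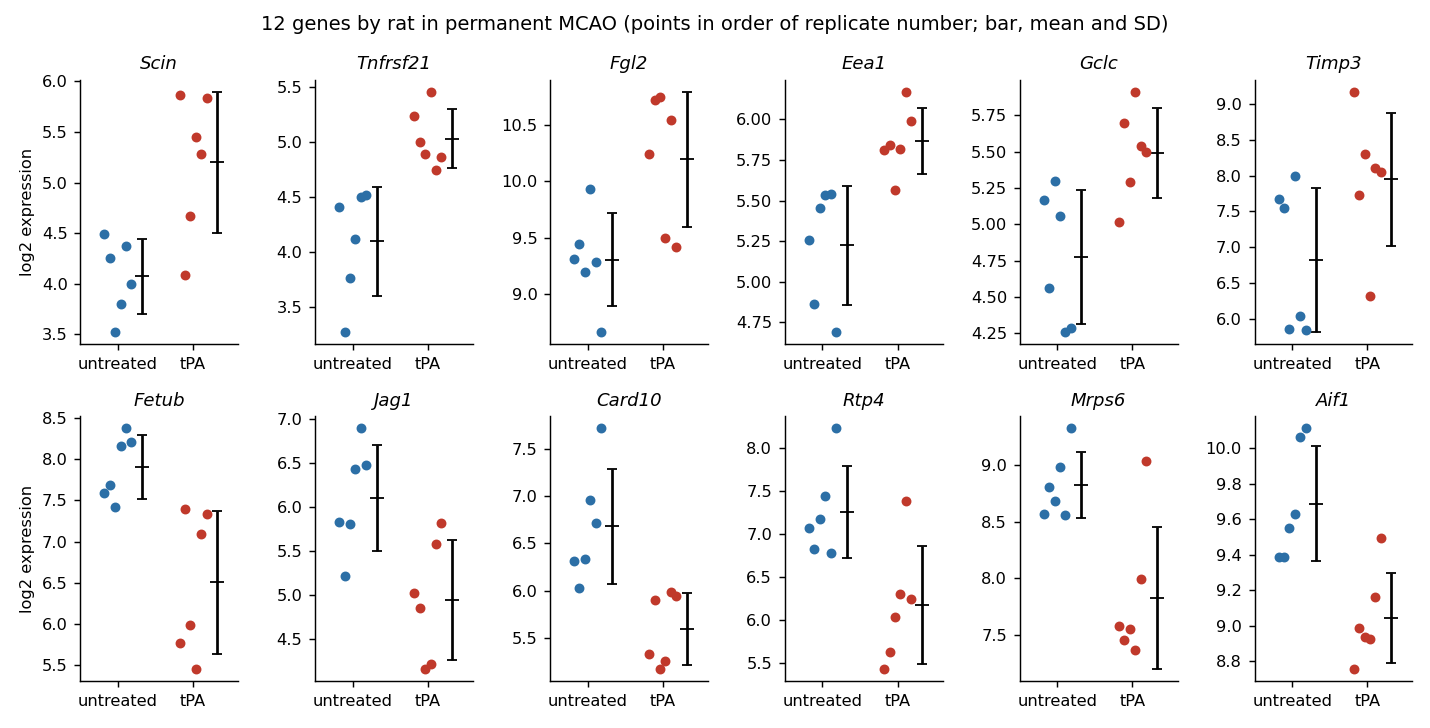
Log2 expression of 12 genes in each rat, untreated (blue) and tPA (red), 6 rats each, with the mean and SD beside the points. Tnfrsf21, Eea1, Fetub and Card10 show no overlap between groups, the other 8 overlap in at least 1 rat, and Timp3 (upper right) was not called.

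Of genes picked from those the study names for tPA, Jag1 was called here and the other 17 measured were not. Over all genes 0.38% were called. For permanent-MCAO the study names Jag1, Timp3, Csf1, Slpi, Fcgr2b, Gzmb, Itgb2, Col17a1 and Pik3cd. The rest it names for reperfused-MCAO, for its analysis of all groups or without a group, so for them this is an unlike comparison. Timp3, an inhibitor of matrix metalloproteases, spanned 5.85 to 7.99 (median 6.79) in untreated rats and 6.32 to 9.17 (median 8.08) with tPA, and differed by 1.12 (SE 0.537, 95% interval -0.06 to 2.31, p = 0.0606, exact permutation p = 0.0541). A second bright probe set of Timp3 differed by 1.16 (SE 0.572). Untreated rats fell into 3 below the lowest tPA rat, at 6.32, and 3 between 7.54 and 7.99, and 4 of 6 tPA rats lay above all of them. Csf1, the growth factor of monocytes and macrophages, differed by -0.79 (exact permutation p = 0.0216) in a dim probe set, and its other 3 probe sets were dimmer and differed by at most 0.03 in size. Slpi, a protease inhibitor of neutrophils, ranged from 11.97 to 13.01 (median 12.30) without tPA and from 11.09 to 12.51 (median 11.42) with it, a difference of -0.75 (p = 0.0157, exact permutation p = 0.0281) that missed the threshold. Of the 17, 5 met the thresholds in some alternative. Slpi did without tPA replicate 5, Csf1 without tPA replicate 4, without untreated replicate 3 and with all 42 arrays in 1 fit, Fcgr2b with all 42 arrays, Tlr2 with a replicate block, and Col17a1 with array weights and without tPA replicates 1 and 4 together.

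Of 35 measured genes of the interleukin 1 and Toll-like receptor pathway, 0 were called, beside 0.38% of all genes. In the mean 14 were higher and 21 lower, where 50.5% of all genes were lower, and the median was -0.11. That median was -0.03 without tPA replicate 1, 2 or 3, -0.07 without tPA replicate 4 and -0.01 without untreated replicate 6. Its members differed in direction. Tab2, an adaptor of the kinase TAK1, and Irak2, a kinase of the receptor complex, differed by 0.37 and 0.50 (exact permutation p = 0.0108 and 0.0346). Tlr2, which senses bacterial lipoproteins and tissue damage, differed by -0.60 (SE 0.224, exact permutation p = 0.0281). Fcgr2b, the inhibitory receptor for IgG, which is not of that pathway, differed by -0.55 (SE 0.244, exact permutation p = 0.0649). Mmp9, the gelatinase of neutrophils, spanned 6.24 to 8.63 (median 7.63) in untreated rats and 4.75 to 7.70 (median 6.87) with tPA. The Mmp9 difference of -0.83 had a 95% interval from -2.14 to 0.47 (exact permutation p = 0.203), which holds both 0 and a fall of over 4-fold. Il1r2, the decoy receptor of interleukin 1, differed by -0.67 (95% interval -1.89 to 0.55, exact permutation p = 0.299), with tPA rats from 6.97 to 10.32. Gzmb, the granzyme of cytotoxic lymphocytes, differed by 0.43 (SE 0.315, exact permutation p = 0.225) in its brighter probe set and by 0.84 (SE 0.284) in the other. Itgb2, the beta chain of leukocyte integrins, differed by 0.23 (exact permutation p = 0.0649) and Col17a1, a collagen, by 0.30 in a dim probe set (exact permutation p = 0.0455). The remaining 7, Pik3cd, Camk4, Serpinb6a, Icam2, Anxa1, Fgr and Orai1, differed by -0.33 to 0.07, with exact permutation p values of 0.13 or more. These are values of the brighter probe set where a gene has several, and dimmer ones differed by -0.39 for Pik3cd (SE 0.286), 0.19 for Icam2 (SE 0.489) and 0.05 for Camk4 (SE 0.059).

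The genes of plasminogen activation themselves showed no call in 36 measured genes of plasminogen activation and coagulation, where the background was 0.38% of 14217 genes represented by 1 probe set each. Their median difference was -0.001, against -0.001 over all genes. Only 13 of the 36 were not dim, and the median of those 13 was 0.066, against -0.02 over all genes that were not dim. Single genes of the list differed by -1.20 to 0.71. With most of the list dim, the median of all 36 does not show that these genes were unchanged. Pros1, a dim gene of the list, differed by 0.56 (SE 0.239, exact permutation p = 0.0714). The rat transcript of tPA, Plat, was dim in both groups (3.11 without and 3.37 with tPA). Lrp1, the receptor that clears tPA, differed by -0.43 (SE 0.266) and Anxa2, the annexin that binds plasminogen and tPA at the cell surface, by -0.12 (SE 0.190). Serpinb2, an intracellular inhibitor of plasminogen activators, differed by 0.71 (SE 0.467). In 28 matrix protease, inhibitor and collagen genes 0 were called, and 19 of them were dim. Of 36 Notch pathway genes 1 was called, the ligand Jag1, with a median of -0.01. The receptor Notch1 differed by 0.09 (SE 0.205) in its brighter probe set and was called higher by 0.48 (exact permutation p = 0.00433) in a dimmer one, from 4.83 to 5.31 (median 5.06) to 5.23 to 5.98 (median 5.52).

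Blood cell genes leaned in different directions by cell type, with few calls. Of 18 B cell genes 17 were lower in the mean with tPA (median -0.36), of 25 neutrophil genes 20 (median -0.34) and of 8 MHC class II genes all 8 (median -0.31), and 0 were called in these lists. Platelet genes were higher in 24 of 28 (median 0.29), NK and cytotoxic cell genes in 19 of 25 (median 0.30) and T cell genes in 21 of 26 (median 0.21), again with 0 called. Over all 14217 genes 50.5% were negative and the median was -0.001. The monocyte list held 4 called genes of 32, beside 0.38% of all genes, Tnfrsf21 higher and Aif1, Scarb1 and P2ry6 lower, with 22 of 32 negative (median -0.14). That median was -0.09 without tPA replicate 1, -0.06 without tPA replicate 2 and -0.23 without tPA replicate 6.

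The rats of the 2 groups overlapped in every one of these lists when the bright genes were averaged in each rat. The B cell mean ran from 7.77 to 9.01 with tPA and from 8.13 to 9.34 without, the platelet mean from 9.22 to 10.25 and 9.08 to 10.23, and the NK mean from 7.74 to 8.999 and 7.66 to 8.15. Single rats set the size of several medians. The T cell median was 0.37 without tPA replicate 1, 0.05 without tPA replicate 3, 0.08 without tPA replicate 4 and 0.14 without untreated replicate 2. The B cell median was -0.23 without untreated replicate 3, the NK median 0.10 without tPA replicate 6, and the neutrophil median -0.17 without tPA replicate 4 and -0.21 without untreated replicate 6. The platelet median ranged from 0.18 without tPA replicate 1 to 0.46 without untreated replicate 4 (0.19 without untreated replicate 6), and the MHC class II median was -0.15 without untreated replicate 3 and -0.19 without tPA replicate 1. None of these medians changed sign when 1 rat was left out. The part of cell numbers in these differences was not tested, since no counts were used here.

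**Figure D3:**
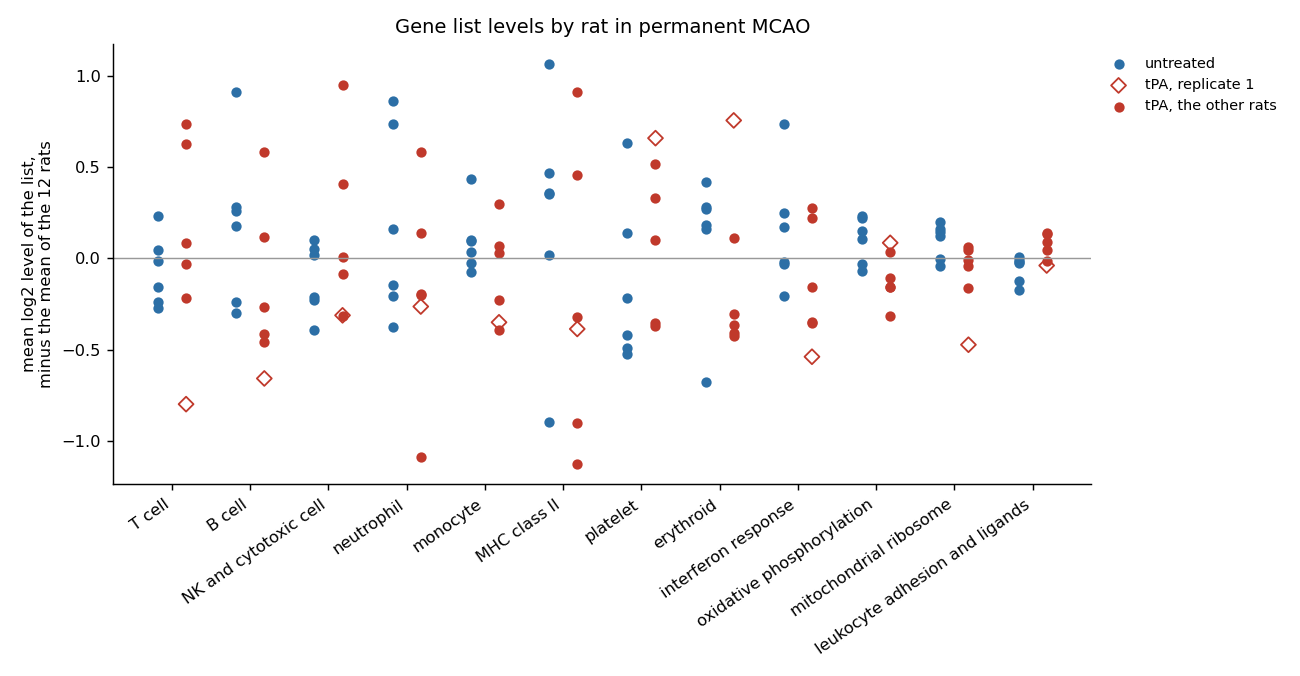
Mean log2 level of the bright genes of 12 lists in each rat, minus the mean of the 12 rats, for untreated rats (blue) and tPA rats (red), with tPA replicate 1 as an open diamond. The groups overlap in all 12 lists, and tPA replicate 1 is lowest in the T cell, B cell, interferon and mitochondrial ribosome lists and highest in the erythroid and platelet lists.

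Single lymphocyte and granulocyte genes had small p values without a call. Klre1 and Klrd1, lectin-like receptors of NK cells, differed by 1.10 and 0.45 (exact permutation p = 0.039 and 0.0519). Klrd1 ranged from 9.66 to 9.90 (median 9.75) in untreated rats and from 9.67 to 10.98 (median 10.27) with tPA, so the spread was wider with tPA. Fcer1a, the IgE-binding chain of the receptor on mast cells and basophils, ran from 2.89 to 6.16 (median 4.57) in untreated rats and from 2.82 to 3.61 (median 2.95) with tPA. Its difference was -1.38 (SE 0.554, p = 0.0297, exact permutation p = 0.0433). The probe set was dim, with every tPA rat and untreated replicates 1, 2 and 4 below log2 4. Untreated replicates 3, 5 and 6 stood at 5.39, 5.29 and 6.16. Cyba, a subunit of the neutrophil oxidase, differed by -0.61 (exact permutation p = 0.0152) and Serpinb1a, an inhibitor of neutrophil proteases, by -0.61 (exact permutation p = 0.0173). Lasp1 and Vcl, proteins of the actin cytoskeleton at adhesion sites, differed by 0.34 and 0.56 (exact permutation p = 0.026 and 0.0498).

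Mitochondrial genes were lower in the mean with tPA with small differences. Of 69 measured genes of oxidative phosphorylation, 64 (92.8%) had a negative difference, where 53.8% of all genes at or above log2 4 did, and their median was -0.22. None was called, and 7 had an unadjusted p under 0.05, all lower, beside 2.62% of all genes. Cox7c, a subunit of cytochrome oxidase, had the smallest p of them, with 8.37 to 8.83 (median 8.62) in untreated rats and 8.20 to 8.52 (median 8.34) with tPA, a difference of -0.26 (SE 0.074, exact permutation p = 0.00866) that lay under the fold threshold. Uqcrc1 of complex III (-0.32), Cyc1, which is cytochrome c1 (-0.27), and Ndufa9 of complex I (-0.23) had exact permutation p values of 0.0368, 0.0346 and 0.0325. The list mean spanned 9.19 to 9.59 with tPA and 9.44 to 9.74 without, so the groups overlapped. Its median lay between -0.26 and -0.15 when any 1 rat was left out.

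Of 72 genes of the mitochondrial ribosome 59 were lower in the mean (median -0.17, or -0.10 without tPA replicate 1). Of the 72, beside 0.38% of all genes called, Mrps6 and Mrpl40 were called lower, at -0.996 and -0.47, and a second, dimmer probe set of Mrpl40 differed by 0.19. Antioxidant genes were lower in 27 of 34 (median -0.13), with Sod1, the cytosolic superoxide dismutase, called lower by 0.43 (10.93 to 11.36, median 11.18, against 10.35 to 11.10, median 10.77, exact permutation p = 0.0173) and Gclc called higher, which are 2 called of 34 against the same 0.38%. Lysosome genes were lower in 33 of 39 (median -0.14) and proteasome genes in 24 of 32 (median -0.11, or -0.03 without tPA replicate 1 and -0.07 without tPA replicate 2), with 0 called in either. The lysosome median was -0.09 without tPA replicate 1, -0.10 without untreated replicate 6, -0.22 without tPA replicate 5 and -0.24 without tPA replicate 6. In the other direction 29 of 42 chromatin and corepressor genes were higher (median 0.12), with 0 called and Arid2, a subunit of a chromatin remodeling complex, at 0.33 (exact permutation p = 0.013). Its 2 dimmer probe sets differed by 0.22 and -0.53 (SE 0.170 and 0.241), so probe sets of Arid2 disagreed in sign. That median was 0.20 without tPA replicate 1, 0.07 without tPA replicate 3 and 0.04 without tPA replicate 4.

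Interferon response genes were lower in the mean in 25 of 40, with a median of -0.19. Rtp4 was the 1 gene called of the 40, where 0.38% of all genes were. Oas1a, a sensor of double-stranded RNA, spanned 8.88 to 10.23 (median 9.36) in untreated rats and 7.84 to 9.38 (median 8.81) with tPA, a difference of -0.76 (p = 0.0334, exact permutation p = 0.0476). Isg15, a ubiquitin-like modifier, differed by -1.23 (SE 0.597) and Usp18, which removes it, by -0.70 (SE 0.406). The list median was -0.04 without tPA replicate 1, -0.09 without tPA replicate 2 and -0.06 without untreated replicate 6. Erythroid genes were lower in 27 of 34 (median -0.19, or -0.30 without tPA replicate 1 or untreated replicate 3) with 0 called, and Hbb, the beta globin of red cells, differed by -0.11 (SE 0.072).

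**Figure D4:**
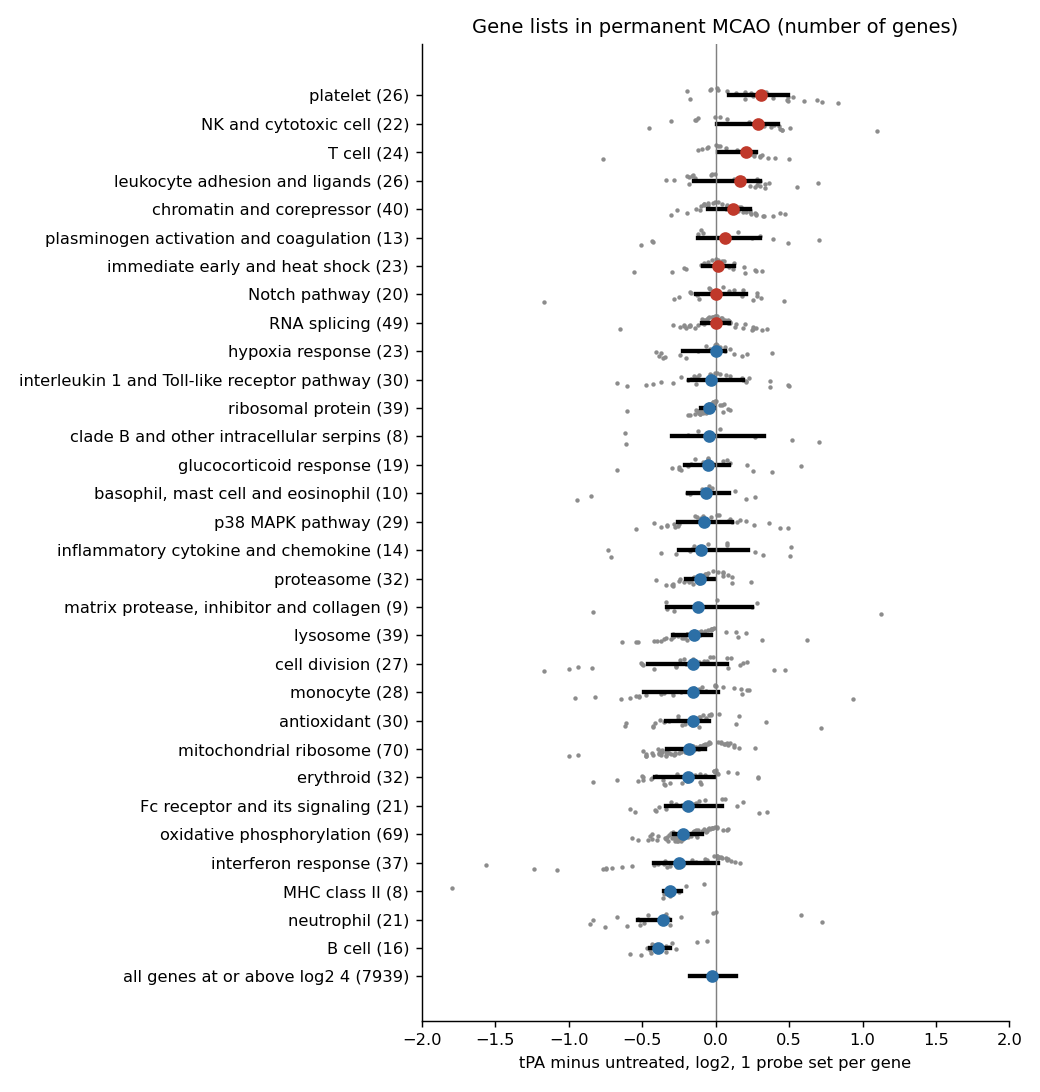
tPA minus untreated difference (log2) of the genes of 31 lists with at least 8 genes at or above log2 4, 1 grey point per gene, with the median (red above 0, blue below) and the interquartile range (black line). The bottom line holds all 7939 genes at that level, and the MHC class II, neutrophil and B cell lists have the lowest medians while platelet, NK and T cell lists have the highest.

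Different rats received tPA after reperfused-MCAO, and the tPA difference there was set beside that in permanent-MCAO. Of the 100 probe sets called in permanent-MCAO, 66 had the same sign in reperfused-MCAO and 3 were called there. The same shares over all probe sets were not computed, so these counts do not show agreement beyond that of any probe set. A test of the difference between the 2 tPA effects, an interaction over 24 rats, called 92 probe sets (0.296%), 64 with a higher and 28 with a lower tPA difference in permanent-MCAO. In limma 0 passed adjustment, with a smallest adjusted p of 0.978 and 782 at an unadjusted p under 0.05. Of the 92, 16 were also among the 100. The tPA difference in permanent-MCAO is part of the interaction, so this overlap is partly built in.

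The genes below were picked among those called in permanent-MCAO, so their interaction calls are not separate evidence. Scin was the 1 gene of the 12 highest and 12 lowest whose tPA difference was itself called as different between the 2 kinds of MCAO. It differed by 1.13 in permanent and by -0.68 (SE 0.470) in reperfused-MCAO, which is 1.80 apart (SE 0.573). Aif1 differed by -0.65 in permanent and 0.01 in reperfused-MCAO, which is -0.65 apart (SE 0.210) and was also called. Cuedc2, which regulates protein degradation in the cell cycle and inflammation, ranged from 7.54 to 8.12 (median 7.98) in untreated and from 6.97 to 7.54 (median 7.29) in tPA rats with permanent-MCAO. It differed by -0.63 there and by 0.01 in reperfused-MCAO (-0.63 apart, SE 0.165, called). The dimmer probe set of Notch1 differed by 0.48 and -0.35 (0.83 apart, SE 0.209, called), and that of Commd7, a member of the COMMD family, by -0.70 and 0.31 (-1.01 apart, SE 0.245, called). For Commd7 the 2 brighter probe sets differed by 0.10 and 0.22 in permanent-MCAO (SE 0.265 and 0.221), so probe sets of this gene disagreed in sign. Letm1, Pts and Igdcc3, the other genes named for the interaction, rested on dim or nearly dim probe sets, and 2 brighter probe sets of Letm1 differed by 0.03 and -0.07 in permanent-MCAO.

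Several of the lowest genes had a like difference in reperfused-MCAO. Fetub differed by -1.11 there (SE 0.507) and by -1.41 in permanent-MCAO, LOC100912143 differed by -1.24 (SE 0.647), Cpne8 by -1.20 (SE 0.60), Card10 by -0.99 (SE 0.658) and Slc35c2 by -1.07 (SE 0.373). None of these 5 was called in reperfused-MCAO. Without MCAO, the rats given tPA minus anesthesia rats differed in the other direction in all 5, by 1.27, 0.81, 0.34, 0.60 and 1.36. It is not stated whether the rats given tPA without MCAO were anesthetised, so tPA and anesthesia cannot be told apart in that comparison. The hybridization control signal of those arrays, 9.72 to 11.69, also lay below that of every anesthesia array, 11.79 to 12.37, and its part in these differences was not tested. Jag1 and Rtp4 differed little with reperfusion, by 0.04 and 0.16, and the differences between the 2 kinds of MCAO, -1.21 (SE 0.523) and -1.24 (SE 0.486), were not called. Tnfrsf21, Eea1, Man2a1 and Urb1 differed by -0.29, -0.04, -0.04 and 0.06 in reperfused-MCAO, and none of the 4 was called for the interaction.

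**Figure D5:**
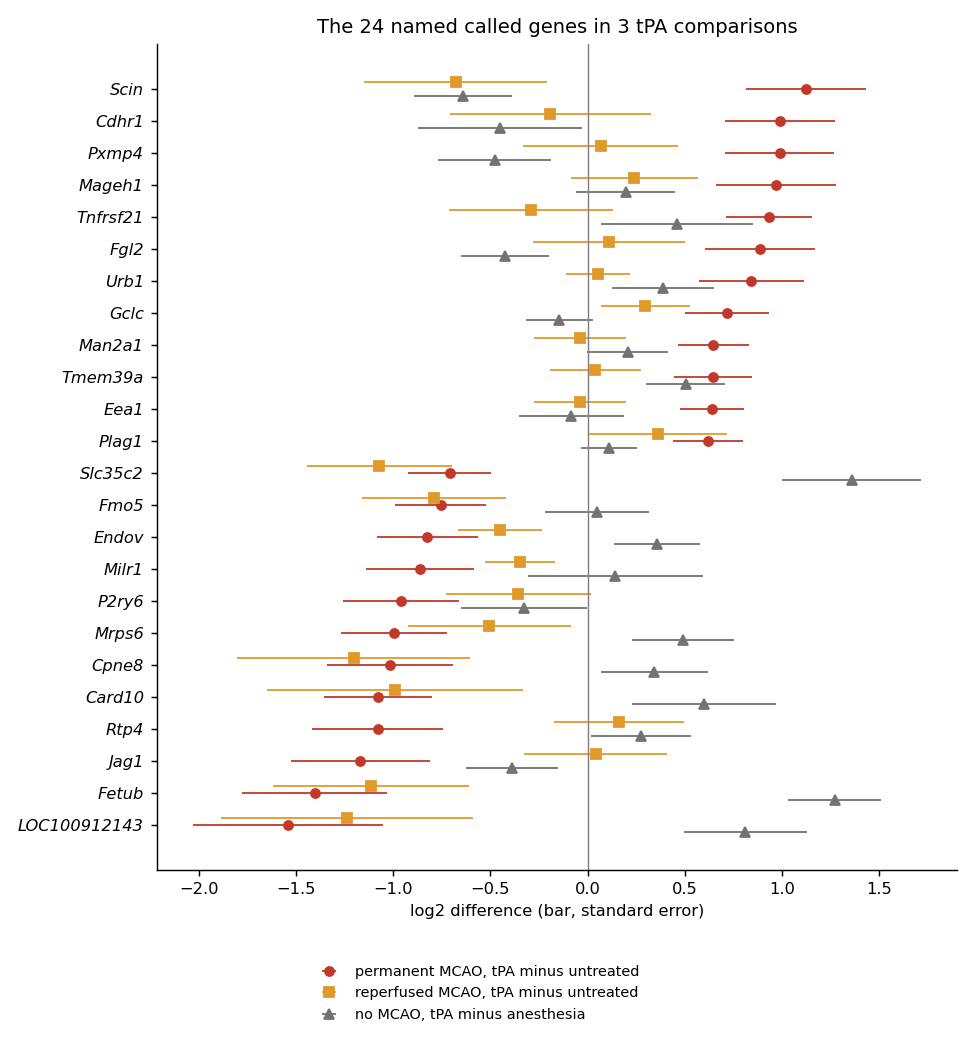
Log2 difference with its standard error for the 12 highest and 12 lowest bright called genes, in permanent-MCAO (red circles), reperfused-MCAO (orange squares) and without MCAO against anesthesia (grey triangles), 6 rats in each group. Genes high in permanent-MCAO lie near 0 or below in reperfused-MCAO, except Plag1, Gclc and Mageh1 at 0.24 to 0.36, while Fetub, LOC100912143, Card10, Cpne8, Fmo5 and Slc35c2 lie at -0.71 or lower in both kinds of MCAO.

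Untreated rats with permanent-MCAO were also set against anesthesia for these genes. Fetub was 1.98 above anesthesia in untreated rats (SE 0.260), LOC100912143 1.45, Card10 1.32, Jag1 1.29, Fmo5 1.17, Cpne8 1.12 and Mrps6 1.10, and all were lower with tPA by the values above. Among genes called higher with tPA, the same difference was -1.43 for Pxmp4, -0.78 for Urb1, -0.76 for Gclc and -0.73 for Plag1. Fgl2 and Eea1 differed little from anesthesia, by 0.07 and -0.09. These comparisons share the 6 untreated rats with the tPA comparison, so a rat that was high by chance enters both with opposite sign, and the opposite signs are not separate evidence.

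The study also asked whether tPA-treated rats could be told from untreated ones by their profiles. It reported that probe sets picked from those called in these same rats classified 12 of 12 rats correctly. The called probe sets also clustered by treatment there. Those probe sets were called with all 12 rats in use, so the placement and clustering below are unlike measures. When each rat was placed by its distance to the 2 group means, on 62 to 182 probe sets chosen again without that rat, 2 of 12 rats were placed in their own group, 1 of each. Leaving out 1 rat makes the groups unequal in size, so 2 of 12 alone is not a measure of separation. When 1 rat of each group was left out together, an arrangement chosen after the data were seen that keeps the groups equal in size, 29 of 72 placements were correct (40.3%). The 72 placements use the same 12 rats repeatedly and are not independent. The first 2 principal components of all probe sets held 32.2% and 13.7% of the variance. Average-linkage clustering split off tPA replicate 1 alone from the other 11 arrays, so the groups did not form separate branches.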

How the data were processed

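The deposited values are log2 expression. Per the labels and methods, the authors summarised Affymetrix rat arrays with GC-RMA, run in the software Partek Genomics Suite. The scans were not used here. Blood drawn by cardiac puncture had been amplified with a NuGEN whole blood kit, and 1 array holds 1 rat, so replicates are separate animals. Of 31099 probe sets, 57 controls were set aside and 31042 tested; 20826 have 1 gene symbol, 436 several and 9780 none. Symbols come from the platform annotation and the GRCr8 gene table. Each gene enters lists by its probe set of highest mean over 42 arrays. Arrays hold no counts, so the number of arrays limits precision.

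The groups were compared with limma 3.58.1 (R 4.3.3, statmod 1.5.0), which was tested on simulated data. P values are two-sided and unadjusted unless called adjusted. Calls use p at most 0.01 and fold at least 1.2. Exact p values use every division of 12 rats into groups of 6. The 36 lists and all genes were chosen with earlier results of these data known. Named genes are some of those the study names and the 12 highest and 12 lowest bright called genes. Added to these are up to 4 per list with p at most 0.05 and the 8 smallest interaction p values among called genes. Other examples were chosen after their values were seen. Alternatives covered the test, scaling, array weights, a dim filter, thresholds, a control covariate, a replicate block and omission of each rat. Figures were drawn with Python and matplotlib.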

Additional observations from a re-analysis of the deposited data

Results flagged for a closer look

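In 7 of 182 groups of 6 rats tested, 3.85%, the highest or lowest rat stood farther from its neighbour than a Dixon outlier test allows at 95%, where chance gives about 1 in 20. With tPA, Cdhr1 was 7.53 in replicate 6 (next 6.32), Endov 5.53 in replicate 5 (next 4.42) and Fcer1a 3.61 in replicate 1 (next 2.98). In tPA replicate 4, Bahd1 was 6.75 (next 6.22) and Pts 4.12 (next 3.49). In untreated rats the lowest values were 3.65 for Cpne8 in replicate 3 (next 4.73) and 2.16 for Ccdc77 in replicate 2 (next 2.97). All values are log2 expression.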

How the results depend on the processing

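The count of 0 probe sets passing adjustment held in every alternative run, with smallest adjusted p values from 0.216 to 1. The 100 called probe sets became 62 with the methods' test, 245 with all 42 arrays in 1 fit and 231 with array weights. With the hybridization control as a covariate 169 were called. A new fit of only the probe sets that were not dim called 49, and 42 of these were among the 100. Of the 100 themselves, 83 were not dim. The count was 45 at a fold of 1.5, 616 at p at most 0.05 and 0 by adjusted p. Leaving out 1 rat gave 62 to 182 called, sharing 43 to 72 with the 100. Without tPA replicates 1 and 4 together, chosen after the data were seen, 109 were called and 28 of the 100 remained. The split of 56 higher and 44 lower turned to more lower with the control covariate (64 and 105), with the replicate block (84 and 96) and without tPA replicate 5 (56 and 81), tPA replicate 6 (73 and 85) or untreated replicate 2 (45 and 60), 5 (32 and 39) or 6 (30 and 32). It leaned further to higher without untreated replicate 4 (105 and 39), tPA replicate 2 (68 and 35) or tPA replicates 1 and 4 together (75 and 34). Rats share only a replicate number: deviations of same-numbered rats correlated between -0.26 and 0.35, over 0.1 in 3 of 6 pairs, and 2 tPA arrays correlated best with their own number. With the replicate block 180 were called, 57 of them shared. For the interaction, 92 became 49 in a new fit of only the probe sets at or above log2 4, 95 with the block and 0 by adjusted p. Of the 24 named called genes, 5 kept the call at the main thresholds in every alternative fit other than leaving out rats, and 0 changed sign. Other thresholds were not applied to single genes, and by adjusted p 0 probe sets passed. Of the 17 uncalled genes, 5 were called in some alternative (Csf1, Col17a1, Fcgr2b, Slpi and Tlr2). Signs of uncalled genes turned for Pik3cd (-0.0741 with the control covariate; -0.0184 to 0.20 leaving out 1 rat), Camk4 (0.26 with array weights, 0.28 without tPA replicates 1 and 4; -0.31 to 0.21), Serpinb6a (0.0395 with the control covariate; -0.40 to 0.12), Icam2 (0.0571 without both) and Fgr (0.00915 with array weights, 0.0022 without both). Placement was correct for 2 of 12 rats, and for 40.3% of placements when a rat of each group was left out. The causes were not tested.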
